A study of Rattus norvegicus with 6 samples.

Results

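Genes of the proteasome, the protease complex that degrades ubiquitin-tagged proteins, were followed in rat cells driven into senescence. A gene was a member if its symbol was Psm, then a letter from a to g, then a number. This rule used names, and was set with earlier results of these data known. The rule found 45 of the 30560 rows of the deposited table. The filter on low counts kept 44 of them for testing. The remaining member, Psma8, an alpha subunit known for its role in the testis, had 0, 3 and 0 estimated counts in SMNV 1, 2 and 3 and 2, 2 and 2 in Dox 1, 2 and 3.

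Poly(A) RNA was sequenced from wild-type rat mesenchymal stem cells, the stromal progenitors of bone, cartilage and fat, grown in high-glucose DMEM with 10% serum. All cells, in both groups, had first received 200 nM doxorubicin, a DNA-damaging anthracycline, for 24 hours. In the 6 days that followed, the cells of the 3 SMNV libraries were given 100 µg/ml of a preparation that the labels name SMNV and do not expand, and the cells of the 3 Dox libraries were given its vehicle. No library without doxorubicin was analysed here, so each comparison below sets SMNV against vehicle in cells that had all met the drug. The labels do not say whether the libraries came from separate cultures, and p-values therefore measure only the spread between these libraries, which may be technical.

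The 6 libraries held 18640909 to 21506967 estimated counts. Their TMM scaling factors ran from 0.9704 to 0.9925 in SMNV and from 1.02 to 1.023 in Dox. Against the cell label, 10 of 10 mesenchymal stromal markers passed the filter, among them Thy1 and Col1a1, while Nt5e averaged only 1.03 TPM in SMNV and 1.21 TPM in Dox. The summed level of 12 haematopoietic markers was 9.97 to 11.8 TPM in SMNV and 10.3 to 11.8 TPM in Dox, and 5 of them, Ptprc and Itgam included, were at 0 in every library. The 8 endothelial markers summed to 0.50 to 1.01 TPM in SMNV and 0.580 to 1.31 TPM in Dox, with Cdh5, Kdr and Emcn at 0 throughout.

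In the proteasome, a core particle of stacked alpha and beta rings encloses the proteolytic sites, which are carried by the beta subunits encoded by Psmb5, Psmb6 and Psmb7. A regulatory particle, built of a base with a ring of ATPases and of a lid, receives ubiquitin-tagged proteins, removes the ubiquitin and feeds the unfolded chain into the core. In the immunoproteasome, which interferons induce, Psmb8, Psmb9 and Psmb10 products take the places of these catalytic subunits, and a decline of proteasome function has been described in senescent cells.

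Proteasome genes did not move as a block: with SMNV, 13 of the 44 tested members rose and 15 fell, while 16 missed the threshold. A gene was called changed at an adjusted p under 0.05 in edgeR's quasi-likelihood test, and by that rule 60.4% of all 12614 tested genes were called, 30.5% higher and 29.9% lower. Changes below are log2 fold changes of SMNV over Dox, with the standard error after ±. The members' shares were 63.6%, 29.5% higher and 34.1% lower, which is near this background. The changes of the members were mostly small, with a median absolute log2 fold change of 0.30 for the members and 0.36 for all tested genes. Of the 28 called members, 24 (85.7%) changed by less than 1.5-fold, while 59.0% of all called genes did. The 4 members above 2-fold were Psmb5, Psmb8, Psmb9 and Psmb10, all higher in SMNV and all catalytic subunits. Values per library, in CPM (counts scaled to a common library size with TMM factors), did not overlap between the groups for 31 of 44 members and for 66.9% of all tested genes.

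The split by direction depended on the scale. In the deposited TPM values, which adjust for transcript length, 11 members rose and 22 fell by limma, in place of 13 and 15, and 24.7% of all genes were higher and 38.1% lower. With the trend on gene length taken out of the counts, 10 rose and 20 fell, against 28.6% and 33.0% of all genes. Over all genes tested, the median log2 fold change was -0.01 in counts and -0.12 in TPM, a fold of 0.922. Changes of single genes in TPM below are to be read against that shift. The sums of TPM below were not corrected for that shift. A scale factor per library would move those sums as well. With the TPM divided by the TMM factors, an alternative added after the data were seen, 13 rose and 15 fell, against 31.1% and 28.0% of all genes. These totals equal those of the main fit, but the members differ. Psma6, Psmb2 and Psmb3 lost their call there, and Psmb1, Psmg1 and Psmd11 gained one. Since RNA was taken from whole cultures, fewer cells expressing a gene and less of its RNA per cell cannot be told apart.

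**Figure D1:**
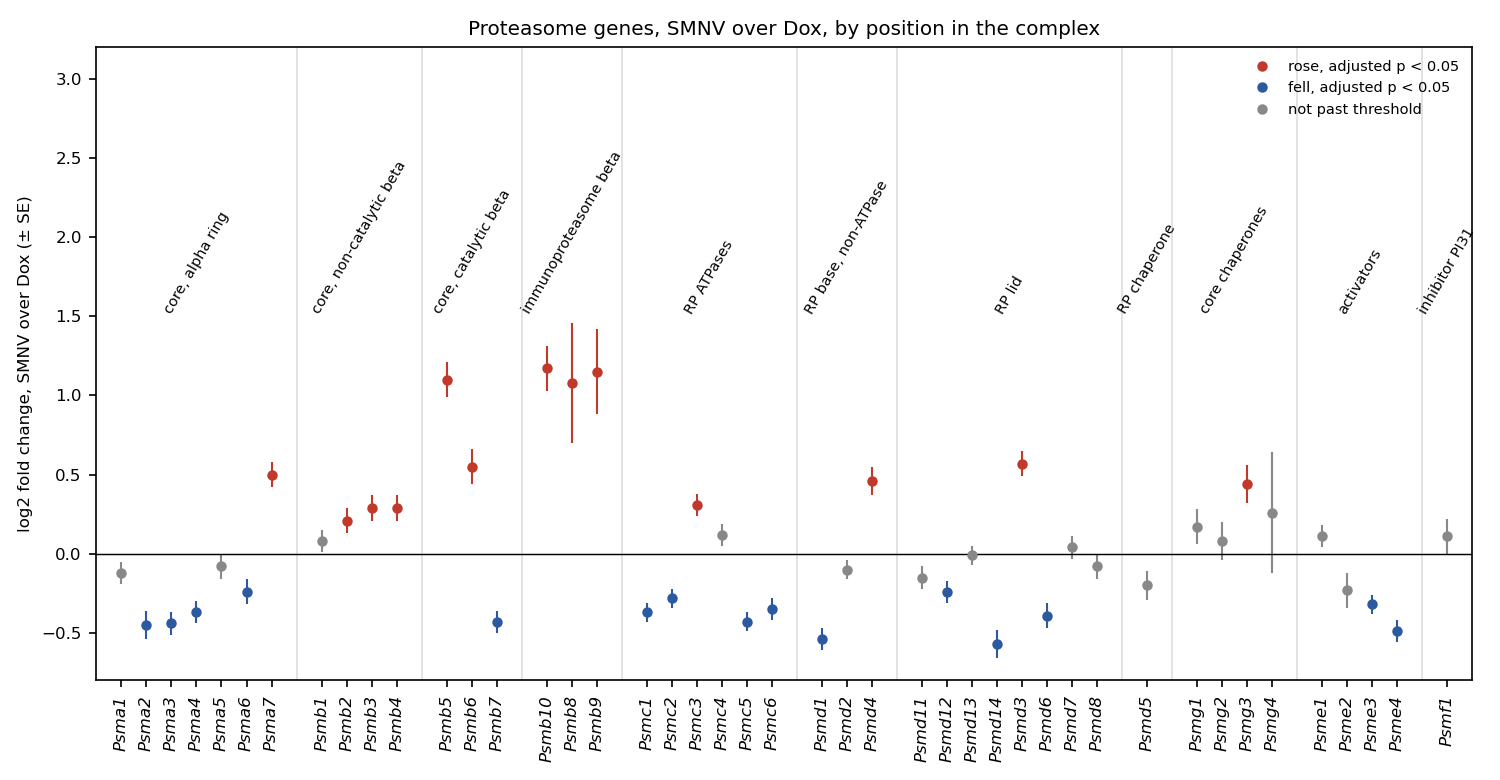
Log2 fold change of SMNV over Dox for the 44 tested proteasome genes (points, with bars for 1 SE), grouped along the x axis by their place in the complex (RP, regulatory particle). Red points rose and blue points fell at an adjusted p under 0.05, and grey points did not pass. The immunoproteasome subunits and Psmb5 stand above 1, while the rest lie between -0.57 and 0.57.

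Among the catalytic subunits of the constitutive core, Psmb5 and Psmb6 rose and Psmb7 fell. Psmb5 (ENSRNOG00000013386) encodes beta5, the chymotrypsin-like subunit and the main target of proteasome inhibitor drugs. It had 58.5, 61.7 and 66.6 CPM in SMNV 1, 2 and 3, against 23.5, 33.3 and 30.3 CPM in Dox 1, 2 and 3. Every SMNV library was above every Dox library, and the log2 fold change was 1.10 ± 0.11 (SE, adjusted p = 6.8e-07). Psmb6 encodes beta1, the caspase-like subunit, and had 47.2, 54.6 and 50.3 CPM in SMNV, against 28.4, 39.0 and 36.5 CPM in Dox. Its rise was smaller, at 0.55 ± 0.11 (adjusted p = 4.0e-04), again with no overlap. Psmb7 encodes beta2, the trypsin-like subunit, and had 103, 125 and 116 CPM in SMNV, against 161, 148 and 154 CPM in Dox. It fell in all SMNV libraries relative to all Dox libraries, by 0.43 on the log2 scale (SE 0.07, adjusted p = 1.3e-04). The 3 calls held under each of the 18 alternatives run.

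The levels of the catalytic subunits lay closer together in SMNV than in Dox. On the TPM scale, which allows levels of different genes to be compared, Psmb5, Psmb6 and Psmb7 averaged 165 ± 8.49, 162 ± 8.15 and 214 ± 14.7 TPM in SMNV, against 83.9 ± 14.7, 121 ± 19.9 and 314 ± 12.2 TPM in Dox (SD, n = 3 each). Their sum was nearly level between the groups, at 541 ± 23.6 TPM in SMNV and 519 ± 23.0 TPM in Dox. In Dox 1, Psmb5 was the lowest of all 14 constitutive core subunits at 67.6 TPM, whereas in the other 5 libraries Psma2 was lowest.

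The promoter of Psmb5 is shown because Psmb5 had the largest rise among constitutive subunits and holds 1 core of the antioxidant response element, TGACNNNGC, the element through which the transcription factor NRF1 is known to act on proteasome genes. The sequence is the RefSeq window from 250 bases before to 50 bases after the start site, chr15:32047330-32047629 of the build GRCr8, minus strand, and the capitals mark the element core, which begins 60 bases before the start. The deposited values were made on another build, mRatBN7.2.
Psmb5: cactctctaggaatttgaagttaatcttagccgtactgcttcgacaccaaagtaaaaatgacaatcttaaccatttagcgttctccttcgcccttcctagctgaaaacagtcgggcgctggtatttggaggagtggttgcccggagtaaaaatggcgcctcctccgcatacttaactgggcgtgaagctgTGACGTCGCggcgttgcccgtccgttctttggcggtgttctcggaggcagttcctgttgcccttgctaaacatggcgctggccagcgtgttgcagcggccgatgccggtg

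All 3 immunoproteasome subunits measured were higher in SMNV, where 30.5% of all tested genes were higher. Each rose by slightly more than 2-fold, at levels far below the constitutive subunits. Psmb10 (ENSRNOG00000019353), which encodes the inducible beta2i, was the most abundant of them in TPM, at 22.2 ± 3.34 in SMNV and 11.1 ± 1.04 in Dox (SD, n = 3 each). It had 14.1, 17.5 and 16.0 CPM in SMNV 1, 2 and 3, against 6.53, 8.26 and 6.41 CPM in Dox 1, 2 and 3, a log2 fold change of 1.17 ± 0.14 (adjusted p = 3.6e-06). Psmb9 (ENSRNOG00000000459), which encodes beta1i, had 4.21, 3.52 and 5.04 CPM in SMNV, against 1.27, 1.68 and 2.76 CPM in Dox, a log2 fold change of 1.15 ± 0.27 (adjusted p = 0.00161). For both genes the groups did not overlap, although Dox 3 stood above the other Dox libraries for Psmb9.

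Psmb8 (ENSRNOG00000000456), which encodes beta5i, was close to the limit of detection. It had only 18, 27 and 21 estimated counts in SMNV and 8, 8 and 14 in Dox, or 0.881, 1.27 and 1.06 CPM in SMNV and 0.390, 0.421 and 0.690 CPM in Dox. The groups did not overlap, and the log2 fold change of 1.08 ± 0.38 passed the threshold at an adjusted p of 0.0226. That call was lost with DESeq2 (adjusted p = 0.0562) and without SMNV 2 (0.0862), SMNV 3 (0.0515), Dox 1 (0.0837) or Dox 2 (0.0725).

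In summed TPM the 3 genes reached 30.0, 36.3 and 36.9 in SMNV 1, 2 and 3, against 14.2, 17.5 and 20.2 in Dox 1, 2 and 3. Immunoproteasome genes are known to be high in haematopoietic cells. Of the 12 haematopoietic markers, 4 were tested and moved in both directions: Laptm5 rose by 0.63 ± 0.23 (adjusted p = 0.0261), a call lost without SMNV 1, SMNV 2, Dox 2 or Dox 3 and on the TPM scale, and Csf1r fell by 0.91 (SE 0.24, adjusted p = 0.00416). Cd14 and Coro1a did not pass, and the part of such cells in the immunoproteasome values was not tested. Psmb11, the catalytic subunit of the thymus, was not analysed here.

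The promoters of Psmb8 and Psmb10 are shown because both hold the core of the interferon-stimulated response element. This motif was searched as GAAA, any 2 bases and GAAA, on one strand or the other. It was added after the sequences were seen. The Psmb8 window is chr20:4656982-4657281 and the Psmb10 window is chr19:50743243-50743542, both from RefSeq on GRCr8 and on the minus strand. Capitals mark the matches, which in Psmb10 begin 73 and 17 bases before the start and in Psmb8, where the match is on the opposite strand, 4 bases before it.
Psmb8: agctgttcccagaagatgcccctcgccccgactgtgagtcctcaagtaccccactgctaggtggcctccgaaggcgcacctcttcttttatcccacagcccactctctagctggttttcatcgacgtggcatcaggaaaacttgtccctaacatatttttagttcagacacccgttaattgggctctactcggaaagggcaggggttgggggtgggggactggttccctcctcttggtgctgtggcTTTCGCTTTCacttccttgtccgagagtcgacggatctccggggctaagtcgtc
Psmb10: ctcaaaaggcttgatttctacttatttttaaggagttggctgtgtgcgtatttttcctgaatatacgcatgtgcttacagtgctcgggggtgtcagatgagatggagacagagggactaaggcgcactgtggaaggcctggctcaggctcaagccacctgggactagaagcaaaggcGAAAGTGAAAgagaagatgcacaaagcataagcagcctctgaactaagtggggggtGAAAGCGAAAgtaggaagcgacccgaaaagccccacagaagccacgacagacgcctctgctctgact

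The level of each inducible subunit relative to the constitutive subunit it replaces was compared in TPM within each library. The ratio of Psmb10 to Psmb7 was 9.32%, 11.0% and 10.7% in SMNV 1, 2 and 3, against 3.04%, 3.97% and 3.59% in Dox 1, 2 and 3. The groups did not overlap, and the difference of the mean log2 ratios was 1.55, with an exact two-sided permutation p of 0.10, the smallest that 3 against 3 libraries allow. Here the inducible gene rose and its constitutive counterpart fell. For Psmb9 to Psmb6 the ratio was 6.30%, 5.19% and 7.63% in SMNV, against 3.52%, 3.43% and 5.90% in Dox. Dox 3 lay within the SMNV range, and the difference of 0.60 had an exact permutation p of 0.200.

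The ratio of Psmb8 to Psmb5 was 1.02%, 1.38% and 1.07% in SMNV, against 1.12%, 0.853% and 1.53% in Dox, where both genes were about 2-fold higher in SMNV. These ranges overlapped fully, with a difference of 0.01 and an exact permutation p of 1.0. Adjusted over the 3 ratios, the p-values were 0.300 for Psmb10 to Psmb7, 0.300 for Psmb9 to Psmb6 and 1.0 for Psmb8 to Psmb5, so that no ratio passed in a design where none could.

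**Figure D2:**
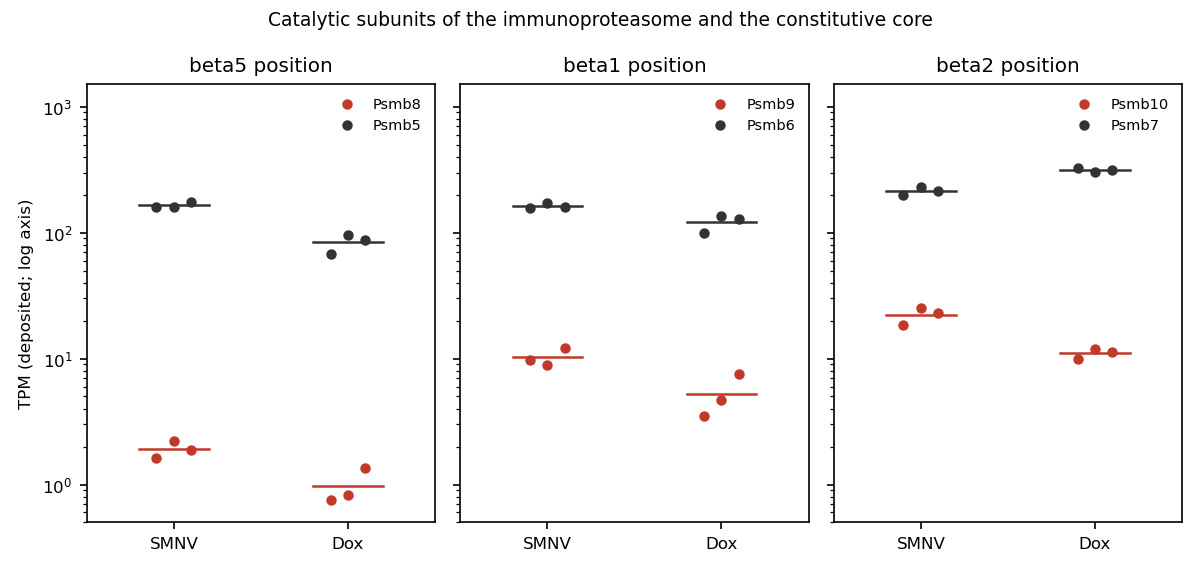
Deposited TPM (y axis, log scale) of the 3 inducible catalytic subunits (red) and the constitutive subunits they replace (black) in SMNV and Dox, with 1 point per library and a line at the mean. Psmb8, Psmb9 and Psmb10 are all higher in SMNV, and the gap between red and black narrows for Psmb10 and Psmb7, where the ratio averaged 10.3% in SMNV and 3.53% in Dox.

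In the alpha ring, which forms the gate of the core, 4 of 7 tested subunits fell and 1 rose. Of all tested genes, 29.9% were lower and 30.5% higher. Psma7 (alpha4), the riser, had 99.4, 92.3 and 102 CPM in SMNV 1, 2 and 3, against 60.5, 74.1 and 72.5 CPM in Dox 1, 2 and 3, a log2 fold change of 0.50 ± 0.08 (adjusted p = 6.8e-05). Psma2 (alpha2) fell the most, with 91.6, 112 and 101 CPM in SMNV, against 159, 128 and 127 CPM in Dox, and a log2 fold change of -0.45 ± 0.09 (adjusted p = 6.0e-04). The groups did not overlap for either gene. Psma3 (alpha7), Psma4 (alpha3) and Psma6 (alpha1) also fell, by 0.44, 0.37 and 0.24 in log2 units. The call of Psma6 (adjusted p = 0.0182) was lost without SMNV 1 or Dox 1, at -0.16 and -0.17. Psma1 (alpha6) and Psma5 (alpha5) did not pass, at -0.12 ± 0.07 and -0.08 ± 0.08.

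In deposited TPM, Psma7 was also the most abundant core subunit in SMNV, though not in CPM (mean of 97.8, against 123 for Psmb1). In all 3 SMNV libraries it led the 14 constitutive subunits, at 297 to 333 TPM, while in Dox the leading subunit was Psma4 in Dox 1 and Dox 2, at 340 and 304 TPM, and Psmb7 in Dox 3, at 314 TPM. The alpha ring as a whole summed to 1231 ± 26.1 TPM in SMNV and 1458 ± 52.4 TPM in Dox (SD, n = 3 each), a ratio of 0.844. The median log2 fold change of its 7 tested subunits was -0.37 in TPM and -0.24 with TPM divided by the TMM factors.

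The non-catalytic beta subunits, structural parts of the beta ring, moved up or did not pass, and none fell. Psmb4 (beta7) had 86.5, 94.6 and 107 CPM in SMNV 1, 2 and 3, against 75.5, 77.4 and 82.0 CPM in Dox 1, 2 and 3, a log2 fold change of 0.29 ± 0.08 (adjusted p = 0.00422). Psmb3 (beta3) had 55.2, 68.3 and 62.4 CPM in SMNV, against 49.3, 52.4 and 50.3 CPM in Dox, also a log2 fold change of 0.29 ± 0.08 (adjusted p = 0.00646). Neither pair of ranges overlapped. Psmb2 (beta4), at 66.4, 81.3 and 79.3 CPM in SMNV and 62.1, 68.4 and 66.2 CPM in Dox, overlapped and passed only narrowly (0.21 ± 0.08, adjusted p = 0.0376), and its call was lost without SMNV 2, SMNV 3, Dox 1 or Dox 3. Psmb1 (beta6) did not pass, at 0.08 ± 0.07. On the TPM scale these calls changed places: Psmb2, Psmb3 and Psmb4 did not pass, at 0.08, 0.07 and 0.16, and Psmb1 did, at 0.23 (adjusted p = 0.0222, limma). With the length trend removed, none of the 4 passed.

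Over the constitutive core as a whole, 6 of 14 subunits rose and 5 fell, against 30.5% and 29.9% of all tested genes. The other 3 core subunits did not pass, and the median log2 fold change of the core was -0.00. The summed level was 2473, 2646 and 2620 TPM in SMNV 1, 2 and 3, against 2710, 2711 and 2709 TPM in Dox 1, 2 and 3. The Dox sums differed by no more than 2 TPM although single subunits differed far more between those libraries, Psmb5 from 67.6 to 96.1 TPM. The ratio of the mean sums was 0.952, without TMM factors. The median log2 fold change of the 14 subunits was -0.07 in TPM and 0.05 with TPM divided by the TMM factors. The direction of the summed difference is therefore not settled.

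**Figure D3:**
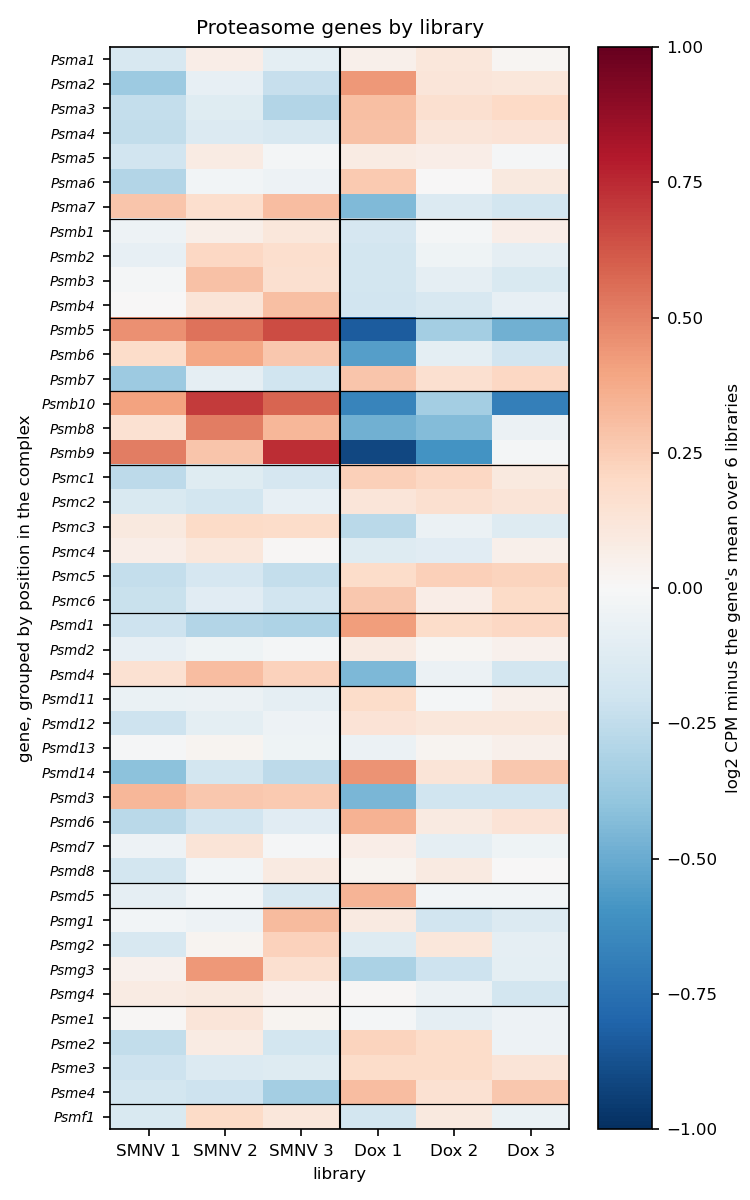
Log2 CPM of each tested proteasome gene in each library, as the deviation from that gene's mean over the 6 libraries (red higher, blue lower), with SMNV 1 to 3 left of the black line and Dox 1 to 3 right of it. Horizontal lines separate the places in the complex in the order of the plot of fold changes. Psmb5, Psmb8, Psmb9 and Psmb10 carry the strongest contrast, and Dox 1 departs furthest among the Dox libraries in most rows, for example at -0.83 for Psmb5 and 0.42 for Psmd1.

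In the regulatory particle falls outnumbered rises, with 8 of 17 tested subunits lower, 3 higher and 6 not past the threshold. Of all tested genes, 29.9% were lower and 30.5% higher. The summed level of the regulatory particle was 2044, 2039 and 2017 TPM in SMNV 1, 2 and 3. In Dox 1, 2 and 3 it was 2431, 2399 and 2407 TPM, a ratio of SMNV over Dox of 0.843. The ranges of these sums of deposited TPM were far apart. The median log2 fold change of the 17 subunits was -0.35 in TPM and -0.22 with TPM divided by the TMM factors. Each of its 3 sections, the ATPase ring, the rest of the base and the lid, contained 1 subunit that rose.

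Of the 6 ATPases, which unfold the substrate, 4 fell and Psmc3 rose, against 29.9% and 30.5% of all tested genes. Psmc3 (Rpt5) had 219, 232 and 231 CPM in SMNV 1, 2 and 3, against 169, 196 and 187 CPM in Dox 1, 2 and 3, a log2 fold change of 0.31 ± 0.07 (adjusted p = 0.00105). In deposited TPM it was also the most abundant regulatory particle subunit in every library, at 278 to 279 in SMNV and 225 to 261 in Dox. Psmc5 (Rpt6) fell the most, with 86.0, 90.6 and 86.3 CPM in SMNV, against 115, 121 and 119 CPM in Dox, and a log2 fold change of -0.43 ± 0.06 (adjusted p = 2.3e-05). No value overlapped between the groups for these genes. Psmc1 (Rpt2), Psmc6 (Rpt4) and Psmc2 (Rpt1) fell by 0.37, 0.35 and 0.28 on the log2 scale. Psmc4 (Rpt3) did not pass, at 0.12 ± 0.07 (adjusted p = 0.137).

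The other subunits of the base bind ubiquitin and its shuttles. Psmd4 (Rpn10), a ubiquitin receptor, had 89.2, 100 and 94.4 CPM in SMNV 1, 2 and 3, against 58.8, 77.4 and 71.1 CPM in Dox 1, 2 and 3, a log2 fold change of 0.46 ± 0.09 (adjusted p = 4.3e-04). Psmd1 (Rpn2), a large scaffold subunit, went the other way, with 186, 176 and 174 CPM in SMNV, against 288, 244 and 250 CPM in Dox, and a log2 fold change of -0.54 ± 0.07 (adjusted p = 1.1e-05). Both sets of values were fully separated. Psmd2 (Rpn1), a docking site for shuttle factors, had 275, 282 and 286 CPM in SMNV and 310, 294 and 300 CPM in Dox. These ranges did not overlap either, but the difference was small and did not pass, at -0.10 ± 0.06 (adjusted p = 0.152).

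The promoter of Psmd1, ENSRNOG00000017730, is shown as the counterpart of that of Psmb5, since it holds the same element core TGACNNNGC 2 times and Psmd1 fell. The window is chr9:94157721-94158020 of GRCr8, plus strand, from RefSeq, and the capitals mark the cores, of which TGACCTCGC begins 165 bases before the start and TGACTGAGC 22 bases after it.
Psmd1: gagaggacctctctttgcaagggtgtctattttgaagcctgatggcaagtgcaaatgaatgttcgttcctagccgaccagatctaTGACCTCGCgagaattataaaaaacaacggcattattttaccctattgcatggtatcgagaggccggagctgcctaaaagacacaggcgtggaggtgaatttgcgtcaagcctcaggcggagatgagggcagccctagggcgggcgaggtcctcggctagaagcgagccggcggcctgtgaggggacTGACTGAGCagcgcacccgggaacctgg

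In the lid, which detaches ubiquitin from the substrate, 3 of 8 subunits fell, 1 rose and 4 did not pass. Among all tested genes the shares were 29.9% lower and 30.5% higher. Psmd14 (Rpn11), the deubiquitinating enzyme of the lid, had 43.9, 51.3 and 48.8 CPM in SMNV 1, 2 and 3, against 80.0, 63.8 and 70.6 CPM in Dox 1, 2 and 3. At -0.57 ± 0.09 in log2 (adjusted p = 5.6e-05) it was the member with the largest fall. Psmd3 (Rpn3), a structural subunit, had 91.1, 87.5 and 86.6 CPM in SMNV, against 52.5, 63.2 and 62.9 CPM in Dox, and rose by 0.57 ± 0.08 (adjusted p = 1.6e-05). Neither gene's values overlapped between the groups. On the TPM scale Psmd3 was the lowest of the 17 subunits in all Dox libraries, at 50.1 to 60.4 TPM, whereas in SMNV the lowest was Psmd14 in SMNV 1 and SMNV 3 and Psmd6 in SMNV 2.

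Psmd6 (Rpn7) and Psmd12 (Rpn5) fell by 0.39 and 0.24 on the log2 scale. Psmd11 (Rpn6), a subunit that links the regulatory particle to the core, had 102, 103 and 101 CPM in SMNV, against 122, 106 and 111 CPM in Dox. The values did not overlap, yet the log2 fold change of -0.15 ± 0.07 did not pass (adjusted p = 0.0673). It passed without Dox 2, at -0.20, and on the TPM scale, at -0.37 (adjusted p = 0.00308, limma). Psmd7 (Rpn8), Psmd8 (Rpn12) and Psmd13 (Rpn9) had log2 fold changes of 0.04, -0.08 and -0.01, and none passed.

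Of the factors that assemble the complex, 1 of 5 tested was called, against 60.4% of all tested genes. Psmg3, one of the chaperones that guide assembly of the alpha ring, had 17.6, 23.2 and 19.1 CPM in SMNV 1, 2 and 3, against 13.5, 14.7 and 15.8 CPM in Dox 1, 2 and 3. Its values did not overlap, and it rose by 0.44 ± 0.12 (adjusted p = 0.00424). Its partner Psmg4 was barely detected, with 10 to 15 estimated counts per library, and did not pass, at 0.26 ± 0.38. Psmg1 and Psmg2, which form the other chaperone pair, had log2 fold changes of 0.17 ± 0.11 and 0.08 ± 0.12, with values that overlapped between the groups. Psmd5, a chaperone of the ATPase ring, had -0.20 ± 0.09 (adjusted p = 0.0816), with Dox 1 alone at 74.5 CPM and the other 5 libraries at 52.5 to 57.8 CPM. Psmd9 and Psmd10, which act beside it, were not analysed here.

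Activators can bind the ends of the core in place of the regulatory particle and open its gate without needing ubiquitin. Psme4 encodes PA200, a nuclear activator tied to acetylated histones, and had 213, 208 and 191 CPM in SMNV 1, 2 and 3, against 299, 269 and 291 CPM in Dox 1, 2 and 3, a log2 fold change of -0.49 ± 0.07 (adjusted p = 1.6e-05). Psme3 encodes the nuclear PA28 gamma and had 109, 114 and 115 CPM in SMNV, against 143, 143 and 138 CPM in Dox, a log2 fold change of -0.32 ± 0.06 (adjusted p = 2.8e-04). Both nuclear activators thus fell without overlap in CPM, and both calls held under each of the 18 alternatives.

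Psme1 and Psme2 encode PA28 alpha and beta, the interferon-inducible cytosolic activator that works with the immunoproteasome, and neither passed the threshold. Psme1 had 53.2, 57.5 and 54.0 CPM in SMNV, against 52.0, 49.6 and 51.2 CPM in Dox, with no overlap but a log2 fold change of only 0.11 ± 0.07 (adjusted p = 0.200). Psme2 had 24.4, 30.7 and 25.7 CPM in SMNV, against 33.9, 32.9 and 28.0 CPM in Dox, overlapping values that differed by -0.23 ± 0.11 in log2 (adjusted p = 0.0714). Psme2 passed as a fall without SMNV 2 (-0.32) or Dox 3 (-0.31), and with the length trend removed (-0.38). Psmf1, which encodes the inhibitor PI31, had 19.0, 24.2 and 22.8 CPM in SMNV and 18.6, 22.6 and 20.0 CPM in Dox, and did not pass, at 0.11 ± 0.11 (adjusted p = 0.398).

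The members that moved between the groups also differed within the Dox group. In 12 of the 13 members that rose, Dox 1 was the lowest Dox library, and in 12 of the 15 that fell it was the highest. This was common in the whole series, since Dox 1 was the lowest Dox library for 71.2% of the 3841 genes that rose and the highest for 62.8% of the 3773 that fell. Differences that share no library were then set side by side. Across the 44 members, the difference in log2 CPM of Dox 2 minus Dox 1 and that of the SMNV mean minus Dox 3 had a Pearson correlation of 0.74 and a Spearman correlation of 0.73. The same pair of differences across all 12614 tested genes gave 0.38 and 0.46. With Dox 3 minus Dox 1 against the SMNV mean minus Dox 2, the members gave 0.73 and 0.65 and all genes 0.24 and 0.34. With Dox 3 minus Dox 2 against the SMNV mean minus Dox 1, the members gave 0.03 and -0.22 and all genes -0.18 and -0.24. The 3 matching comparisons of differences inside the SMNV group gave Pearson correlations of 0.04, -0.27 and 0.27 over the members and 0.11, -0.24 and 0.34 over all genes. These are descriptions across genes, which are not independent and share each library's scaling. Without Dox 1, 11 members rose and 14 fell.

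**Figure D4:**
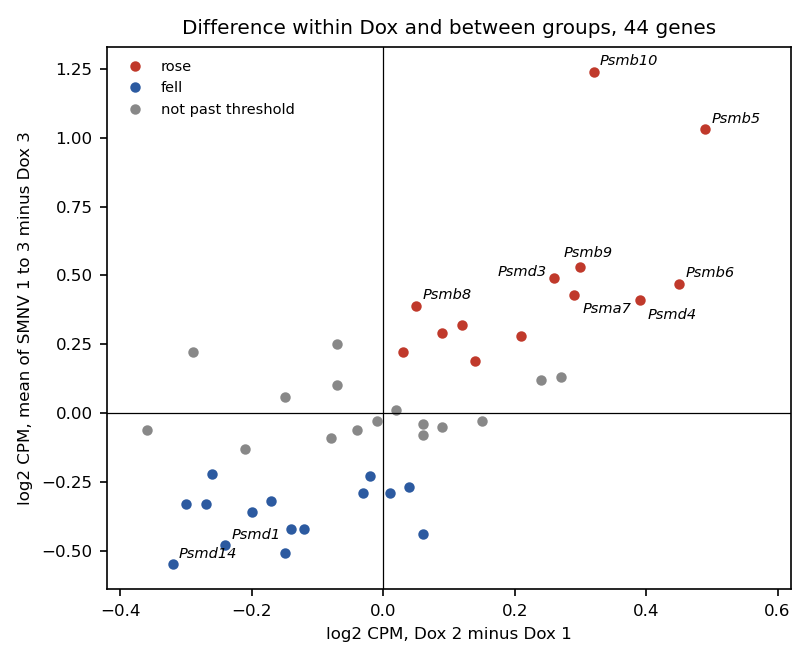
For 44 proteasome genes, the difference in log2 CPM between Dox 2 and Dox 1 (x axis) against the difference between the mean of the SMNV libraries and Dox 3 (y axis). Colours give the call of SMNV over Dox. Psmb5, at 0.49 on x and 1.03 on y, and Psmd14, at -0.32 and -0.55, lie at opposite ends.

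Gene length moved with the fold changes. The Spearman correlation of log2 gene length with log2 fold change was -0.35 over the 44 members and -0.17 over all 12614 tested genes, with longer genes lower in SMNV. The part of length in the members' changes was not tested beyond the fit with the trend removed, which is 1 of the 18 alternatives under which 21 called members kept their call. Those 21 include Psmb5, Psmb6, Psmb7, Psmb9, Psmb10, Psmc5, Psmd1, Psmd3, Psmd4, Psmd14, Psme3 and Psme4.

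Promoter windows of RefSeq matched 41 of the 45 members, and Psma7, Psmd6, Psmd12 and Psmd14 had no entry. Motifs were counted on both strands in windows of 300 bases and compared with 33365 windows of rat promoters. The element core TGACNNNGC of the printed Psmb5 and Psmd1 windows occurred in 7 of 41 members (17.1%) and in 12.1% of all windows. Its holders were Psmb2, Psmb5, Psmb6 and Psmd3 among the genes that rose, Psma3, Psmd1 and Psme4 among those that fell, and none of the 16 that did not pass. The interferon-type core of the printed Psmb8 and Psmb10 windows occurred in 7 of 41 (17.1%) and in 3.92% of all windows. This motif was added after the sequences were seen, so its higher share in members is no independent test. Besides Psmb8 and Psmb10 it was found in Psmb3, which rose, in Psma4, which fell, and in Psmd7, Psme2 and Psmg4, which did not pass. Psmb9 held neither. The GC box GGGCGG was present in 30 of 41 (73.2%), against 33.1% of all windows, the CCAAT box in 19 (46.3%), against 37.5%, and the sequence TTCNNNGAA in 4 (9.76%), against 8.88%. The GC content of the windows was 46.7% to 71.7% in members, with a median of 57.0%, against a median of 51.7% over all windows. The part of this difference in the GC box shares was not tested. The Spearman correlation of GC content with the fold change was -0.07 over 40 tested members. These matches describe letters in a window and do not show binding.

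Proteasome-associated genes outside the Psm names also moved in both directions, with 2 of 12 higher, 5 lower and 5 not past the threshold, where 30.5% of all tested genes were higher and 29.9% lower. Adrm1, the ubiquitin receptor Rpn13, had 37.8, 33.2 and 40.1 CPM in SMNV 1, 2 and 3, against 16.5, 25.1 and 24.0 CPM in Dox 1, 2 and 3, a log2 fold change of 0.76 ± 0.13 (adjusted p = 1.5e-04). Sem1, the small lid subunit, had 49.8, 59.9 and 54.0 CPM in SMNV, against 38.8, 47.6 and 41.0 CPM in Dox, and rose by 0.36 ± 0.09 (adjusted p = 0.00341), a call lost with the length trend removed (0.19). Pomp, the maturation factor of the core, had 59.1, 71.4 and 59.7 CPM in SMNV, against 93.9, 86.0 and 82.2 CPM in Dox, and a log2 fold change of -0.46 ± 0.08 (adjusted p = 2.0e-04). None of these ranges overlapped. Usp14, a deubiquitinase of the regulatory particle, fell by 0.44. Ecpas, a proteasome adaptor, fell by 0.51, and Zfand5, a stimulator of the complex, by 0.49. Uchl5, a deubiquitinase that binds the Adrm1 product, did not pass, at -0.02 ± 0.11.

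Nfe2l1 encodes NRF1, the factor that raises proteasome gene transcription when the complex is inhibited. It had 387, 379 and 381 CPM in SMNV 1, 2 and 3, against 276, 328 and 330 CPM in Dox 1, 2 and 3, with no overlap, and rose by 0.30 ± 0.07 (adjusted p = 0.00216). That call was lost on log2(TPM + 1) with no filter (0.22, adjusted p = 0.0760, limma). Of the 7 tested genes of the NRF1 list, 2 rose and 3 fell, against 30.5% and 29.9% of all tested genes. Mafk, a partner of NRF1, rose by 0.45 ± 0.14 (adjusted p = 0.0135), although its CPM overlapped between the groups. That call was lost without SMNV 1, SMNV 3 or Dox 1 and in all 3 TPM fits (0.28 on log2(TPM + 1), adjusted p = 0.134, limma). Nfe2l2, the related factor NRF2, fell by 0.32 on the log2 scale. Ngly1 and Ddi2, which process NRF1, fell by 0.24 and 0.21, of which Ngly1 lost its call without SMNV 3 (-0.20) and Ddi2, at an adjusted p of 0.0486, with most alternatives.

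Among ubiquitin genes, Ubb had 1067, 1142 and 1129 CPM in SMNV 1, 2 and 3, against 602, 728 and 677 CPM in Dox 1, 2 and 3, and rose by 0.73 ± 0.07 (adjusted p = 8.5e-07). The ubiquitin-activating enzymes Uba1 and Uba6 fell by 0.35 and 0.46. Rps27a, which also fell, by 0.60, averaged only 6.65 TPM in SMNV and 10.9 TPM in Dox, and reads of this ribosomal fusion gene may be shared with near-identical copies, so its value is uncertain, and its call was lost without SMNV 1, SMNV 2 or Dox 3. Genes that carry substrates to the proteasome moved in both directions. Vcp, the segregase p97, had 516, 509 and 522 CPM in SMNV, against 835, 722 and 702 CPM in Dox, and fell by 0.55 on the log2 scale, and its cofactors Nploc4 and Ufd1 fell by 0.39 and 0.32. Nsfl1c, another cofactor of p97, rose by 0.21 ± 0.07 (adjusted p = 0.0171), a call lost without Dox 1, on the TPM scale and with the length trend removed. The shuttles Ubqln2 and Ubqln4 rose by 0.38 and 0.37, and Ubqln2 lost its call on the TPM scale.

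Genes of interferon signalling, the known inducer of the immunoproteasome, did not move together. Among the 7 tested, 2 were higher, 2 lower and 3 not past the threshold. Over all tested genes, 30.5% were higher and 29.9% lower. Irf1, a factor that binds immunoproteasome gene promoters, had 33.4, 35.9 and 36.5 CPM in SMNV 1, 2 and 3, against 26.1, 27.1 and 29.1 CPM in Dox 1, 2 and 3, and rose by 0.36 ± 0.08 (adjusted p = 0.00183). Irf9 had 16.0, 14.2 and 16.5 CPM in SMNV, against 11.3, 9.68 and 10.0 CPM in Dox, and rose by 0.59 ± 0.12 (adjusted p = 4.5e-04). Both were without overlap. The kinase genes Jak1 and Jak2 fell by 0.43 and 0.60 in log2 units, while Stat2, Ifngr1 and Ifngr2 had log2 fold changes of -0.01, 0.08 and 0.08.

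**Figure D5:**
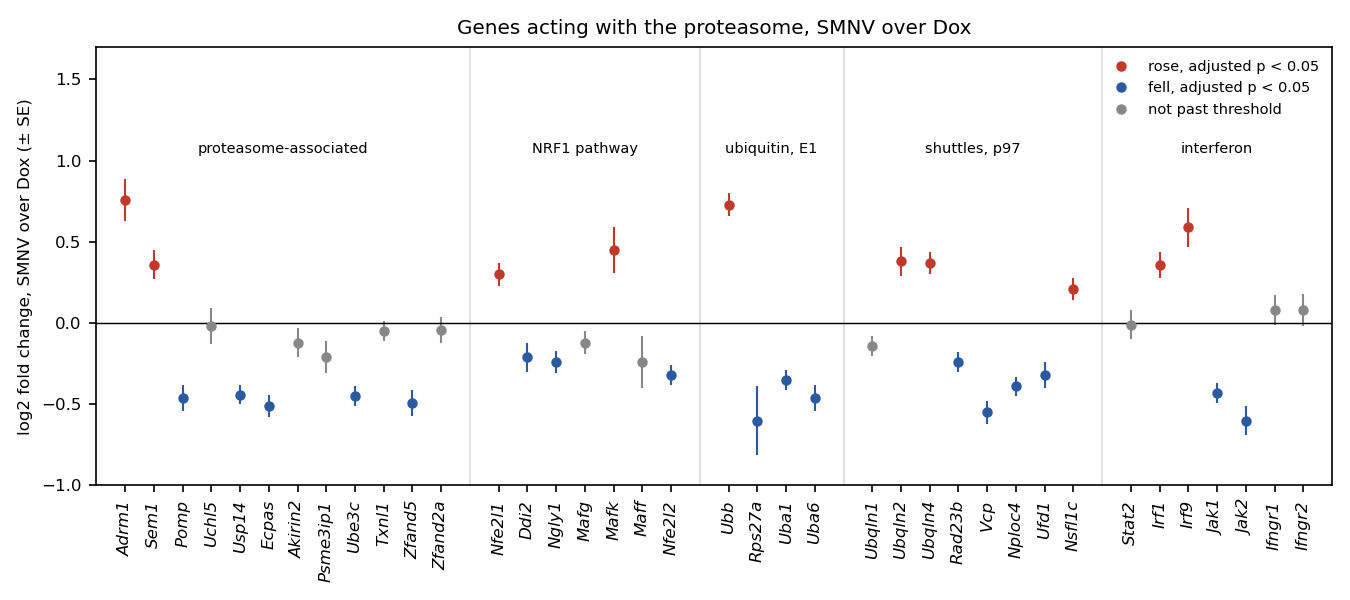
Log2 fold change of SMNV over Dox (points, with bars for 1 SE) for tested genes that act with the proteasome and are reported here, in 5 lists from left to right. Red points rose, blue points fell at an adjusted p under 0.05, and grey points did not pass. Each list holds both directions, from 0.76 for Adrm1 to -0.60 for Jak2 and Rps27a.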

How the data were processed

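RNA was sequenced from 3 SMNV and 3 Dox libraries. Tools listed in the submitters' processing notes are fastp, HISAT2 and HTSeq, and the build is mRatBN7.2, without roles. The annotation release and strand setting were not given in the sources used here, so reads of overlapping genes cannot be told apart. The authors deposited estimated counts per gene, not normalized, of which 17.9% to 18.8% of the values above 0 in a library had decimals, and TPM, to which no further scaling was applied except where stated. The origin of the decimals was not given in the sources used here. They occur in 9 tested members, among them Psmb9 and Psme1.

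Estimated counts were rounded to whole numbers, in place of the whole counts that the design had assumed. Rows passing filterByExpr (12614 of 17395 with any count) were fitted in edgeR 4.0.16 (R 4.3.3) with TMM factors and the group as the only term, over all 6 libraries. The quasi-likelihood test was two-sided, with Benjamini-Hochberg adjustment over all tested rows and a threshold of 0.05, and log2 fold changes are SMNV over Dox. CPM are TMM-scaled. TPM were tested with limma 3.58.1 (trend) on log2(TPM + 1), and ratios with an exact permutation test. DESeq2 1.42.0, other scalings and filters, a fit with the trend on gene length removed and fits leaving out 1 library were alternatives. The edgeR fit was tested on simulated data in which 200 rows were changed 2-fold. In the real data 60.4% of the tested genes were called, a setting that the simulation did not cover.

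Members, lists and tests were chosen with earlier results of these data known. Every member may be named. Full values are given for the catalytic subunits, activators, Psmf1, Psmd4, Psmd11, Psmd14, the largest rise and fall of each class, and Adrm1, Sem1, Pomp and Nfe2l1, with the 3 largest changes per direction of other lists, some of which are not reported here. The interferon-type motif was added after the sequences were seen, as were the values per library of Psmb2, Psmb3 and Psmd2 and the naming of Usp14, Uchl5, Nsfl1c, Laptm5, Csf1r, Cd14, Coro1a, Stat2, Ifngr1 and Ifngr2.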

Additional observations from a re-analysis of the deposited data

How the results depend on the processing

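Between 9 and 13 members rose and between 14 and 22 fell under the 18 alternatives, against 13 and 15 in the main comparison, and no called member reversed. On log2(TPM + 1) with no filter the counts were 9 and 21, with DESeq2 12 and 15, and leaving out 1 library gave 11 to 13 higher and 14 to 17 lower. Over all genes, TPM gave 2966 higher and 4580 lower, in place of 3841 and 3773, and leaving out 1 library gave 3537 to 3802 higher and 3098 to 3652 lower. Of the 28 called members 21 kept their call throughout, and 7 lost it under at least 1 alternative, namely Psma6, Psmb2, Psmb3, Psmb4, Psmb8, Psmc3 and Psmg3. In reverse, 9 uncalled members gained one, most of them on the TPM scale or with the length trend removed. The log2 difference of the Psmb8 to Psmb5 ratio ran from -0.20 to 0.23 when 1 library was left out, that of Psmb9 to Psmb6 from 0.46 to 0.86, and that of Psmb10 to Psmb7 from 1.45 to 1.64. Libraries with the same number shared only that number: the correlations of their deviations were 0.00764, -0.116 and 0.00165, and a fit with the number as a replicate block gave the same 13 and 15. Depth limits Psmb8, Psmg4 and Psma8, which had few counts. The causes of these differences were not tested.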
